A study of Mus musculus with 2 samples.

Results

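Among the small-intestinal epithelial cells of mouse fibroblast and crypt co-cultures, 175 cells were picked out by the transcripts of Clu, Ly6a, Msln and Il1rn. They are called Clu/Ly6a cells here and made up 120 of 584 epithelial cells in the library labelled Ptger4-ON and 55 of 1199 in the library labelled Ptger4-OFF, out of 2446 cell barcodes that passed the filters and 2507 deposited. Each barcode kept had at least 300 genes and at most 20% of its UMIs (unique molecular identifiers, counted as molecules) in mitochondrial transcripts. It was taken as epithelial when Epcam, Krt8, Krt18, Krt19 and Cldn7 together had more UMIs than Col1a1, Col1a2, Col3a1, Sparc and Dcn. A cell entered the group when the 4 gate genes held at least 0.3% of its UMIs and the proliferation genes Mki67, Top2a, Cenpf, Cenpe, Hmmr, Nusap1 and Ube2c held under 0.3%. Because measured values chose the cells, every difference between them and other epithelial cells is a description, with no test. This includes the genes outside the gate, which were counted in the same cells.

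Both libraries came from Drop-seq, in which single cells and barcoded beads meet in droplets, and each was 1 pool of 6 co-cultures. The mice were C57BL6, 10 weeks old, and gave small-intestinal crypts and fibroblasts. Ptger4-ON cultures received only the solvent DMSO and grew as spheroids. Ptger4-OFF cultures received ONO-AE3-208, an antagonist of the prostaglandin E2 receptor EP4 that Ptger4 encodes, at 10 µM in DMSO every second day, and grew as budding organoids. All cultures were kept in Organoid Growth Media and dissociated with trypsin and EDTA. No gene was deleted, and the compound was added to fibroblasts and epithelium together. With 1 library per condition there are no replicates, so no difference between conditions has a test, and intervals cover counting error only.

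In the adult gut, Lgr5 stem cells at the crypt base normally renew the epithelium. After injury, and in organoids grown from fetal gut, epithelial cells can enter another state, marked by Ly6a (Sca-1), Clu (clusterin) and annexins, in which stem cell and absorptive genes are low and targets of the coactivator YAP are often high. Prostaglandin E2 made by fibroblasts near the crypt and sensed through EP4 is known to favour this state and spheroid growth.

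The gate cut through a continuous score, so the Clu/Ly6a cells are a range of that score. Whether they form a discrete type was not tested. The summed gate UMIs of a Ptger4-ON member ranged from 3 to 1018 with a median of 43.5, and of a Ptger4-OFF member from 4 to 414 with a median of 42. The gate genes held a median of 0.853% of the UMIs of a Ptger4-ON member and 0.942% of a Ptger4-OFF member. Their highest shares were 5.97% and 3.96%. The Ptger4-ON cells nearest the threshold held 0.303% inside it and 0.280% outside it. In Ptger4-OFF the nearest cells held 0.308% and 0.288%. In Ptger4-ON, 16 cells lay between 0.3% and 0.4% and 13 between 0.2% and 0.3%, against 6 and 7 in Ptger4-OFF. Far from the threshold the libraries differed: 135 of the 389 non-cycling epithelial cells had no gate UMI in Ptger4-ON, and 637 of 821 in Ptger4-OFF.

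**Figure D1:**
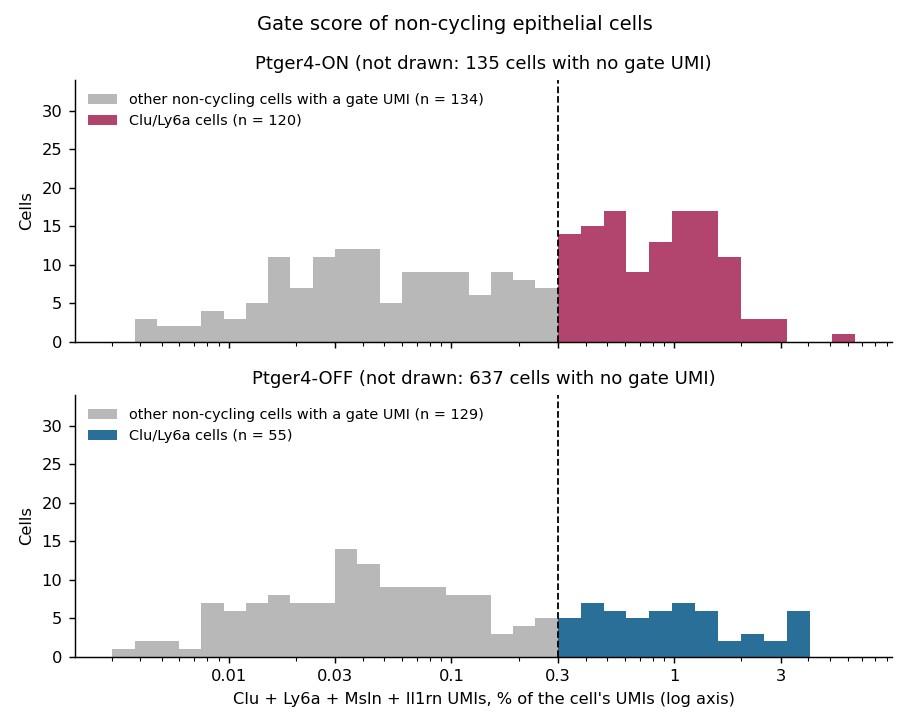
Number of non-cycling epithelial cells (y axis) by the share of their UMIs in Clu, Ly6a, Msln and Il1rn (x axis, log scale) in each library, with the threshold of 0.3% as a dashed line and the cells inside it in colour. Cells fill the score on both sides of the threshold, with 13 Ptger4-ON and 7 Ptger4-OFF cells between 0.2% and 0.3%.

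Clu/Ly6a cells were 20.5% of epithelial cells in Ptger4-ON (exact Clopper-Pearson 95% interval 17.3% to 24.1%) and 4.59% in Ptger4-OFF (3.47% to 5.93%). Among non-cycling epithelial cells they were 30.8% and 6.70%. The share in Ptger4-ON was 14.7% with the threshold at 0.5% and 16.6% with a gate that left out Ly6a. Cells over the proliferation limit that passed the gate were few, 14 of 195 in Ptger4-ON and 3 of 378 in Ptger4-OFF, and they are not among the members. No fibroblast barcode passed the gate, 0 of 294 and 0 of 363, where a limit of 3 counts allows shares of up to 1.02% and 0.826% and the exact interval up to 1.25% and 1.01%.

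The 120 Ptger4-ON members held 1118448 UMIs, with a median of 4641 per cell, and the 55 Ptger4-OFF members held 391896, with a median of 4172. Of the members' UMIs in Ptger4-ON, 20.9% came from 3 barcodes over 50000 UMIs. There was no such barcode among the Ptger4-OFF members. The deepest of these, with 103285 UMIs, also carried 1103 Paneth and 1031 goblet UMIs beside 2354 of the fetal/regenerative list. In Ptger4-ON, 20 pairs of barcodes 1 base apart included a member, and in 7 of these both were members. In Ptger4-OFF 1 pair included a member. The libraries shared 1 barcode, which was no member. Scrublet called 5 and 4 barcodes as doublets, 0.567% and 0.256% of the libraries, none of them a member, so it did not settle which deep barcodes are doublets.

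Fibroblast transcripts were about as abundant in the members as in other epithelial cells. The 16 fibroblast genes summed to 125 CPM (counts scaled to 1e+06 UMIs of the cell set) in Ptger4-ON members and 123 in the other non-cycling epithelial cells. In Ptger4-OFF the sums were 130 and 136, against 39448 and 40354 in the fibroblast barcodes themselves. Only 11 of the 16 genes lie outside the rule that sorted the barcodes. These sums, and their distance from the fibroblast barcodes, are therefore partly set by the rule and are no separate check of purity. Leukocyte genes summed to 27.7 and 23.0 CPM in the members, with 8 and 11 of 14 genes at 0 UMIs. Endothelial genes summed to 8.94 and 10.2 CPM, with 7 and 8 of 10 at 0. Mesothelial genes were also checked, since Msln marks mesothelium, and summed to 2.68 and 7.66 CPM, with 6 and 7 of 8 at 0. Smooth muscle genes summed to 12.5 CPM in Ptger4-ON members and were all at 0 in Ptger4-OFF members. All 6 erythroid genes were at 0 in both.

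RNA quality measures differed between the members and the remaining epithelium. Mitochondrial transcripts took a median of 0.947% of the UMIs of a Ptger4-ON member and 1.43% of a Ptger4-OFF member, against 2.57% and 3.44% in the other non-cycling epithelial cells. Malat1, a long noncoding RNA kept in the nucleus, stood at 9381 CPM in the Ptger4-ON members against 2472 in the others, and at 12488 against 2224 CPM in Ptger4-OFF. Neat1, also nuclear, stood at 289 against 67.4 CPM and at 299 against 75.6. Xist, the other nuclear RNA with enough UMIs, was lower in the members, with log2 ratios of -0.39 in Ptger4-ON and -0.63 in Ptger4-OFF. Low mitochondrial RNA and high Malat1 and Neat1 therefore accompanied every gene group below, and their part in those differences was not tested.

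In the GENCODE annotation of mm10, Clu spans chr14:65968483-65981547 on the plus strand and Il1rn chr2:24336853-24351494 on the plus strand. Ly6a spans chr15:74994877-74998031 and Msln chr17:25748613-25754378, both on the minus strand. All 4 gate genes had UMIs in 57 of the 120 Ptger4-ON members and in 21 of the 55 Ptger4-OFF members. Clu, a secreted chaperone, had UMIs in 115 and 51 of them. It was the most counted gate gene in 80 Ptger4-ON and 39 Ptger4-OFF members. Ly6a, the surface antigen Sca-1, had UMIs in 90 and 36 members and led in 23 and 7. Msln, mesothelin, had UMIs in 105 and 42 members and led in 12 and 7. Il1rn, the interleukin 1 receptor antagonist, had UMIs in 78 and 34 members and led in 5 and 2. By construction these genes were high in the members: Clu stood at 5503 CPM in Ptger4-ON and 7387 CPM in Ptger4-OFF members, against 128 and 68.8 CPM in the other non-cycling cells.

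The 4 markers outside the gate accompanied it in both libraries. F3, tissue factor, which starts coagulation, stood at 1951 CPM in Ptger4-ON members and 150 in the other non-cycling epithelial cells, a 13-fold difference (exact conditional binomial 95% interval 11.6 to 14.7). In Ptger4-OFF it stood at 2590 and 93.5 CPM, 27.7-fold (24.6 to 31.2). Anxa10, an annexin best known from gastric epithelium, was 7.45-fold higher in the Ptger4-ON members (6.57 to 8.47), at 1051 against 141 CPM. It was 21.6-fold higher in the Ptger4-OFF members (18.8 to 24.9), at 1541 against 71.4 CPM. Krt23, a type I keratin, stood at 843 against 83.6 CPM in Ptger4-ON and at 477 against 22.6 CPM in Ptger4-OFF. Ly6d, a small surface protein of the Ly6 family, stood at 773 against 104 CPM and at 2595 against 84.1 CPM. Of the 120 and 55 members, 6 and 3 had no UMI of these 4 genes, as did 146 of 269 and 600 of 766 other non-cycling cells. UMIs of only 1 of the 4 genes were found in 14 and 4 members. Most cells chosen by the gate thus carried other markers of their label. The markers were chosen with earlier results of these data known, so this is no separate check of the label.

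Shares of cells were compared after each cell was thinned to 1000 UMIs, which 110 of the 120 Ptger4-ON members and 54 of the 55 Ptger4-OFF members reached. A UMI of Anxa10 was then found in 44.5% of Ptger4-ON members, 9.80% of other non-cycling epithelial cells and 0 of 266 fibroblast barcodes, a cell type that should lack it. In Ptger4-OFF the Anxa10 shares were 61.1%, 2.86% and 0.284%. Without thinning Anxa10 was found in 76.7% and 81.8% of the members. Krt23 was found in 45.5% of Ptger4-ON members and 6.53% of the others, and Ly6d in 30.0% and 4.08%, with 0.376% of fibroblast barcodes for each. In Ptger4-OFF the shares were 29.6% and 1.64% for Krt23 and 42.6% and 2.59% for Ly6d. Unthinned, 74.2% and 67.3% of the members had a Krt23 UMI, and 60 of 120 and 33 of 55 a Ly6d UMI. Median depths before thinning were 4641 and 4172 UMIs in members and 4591.5 and 4495 in fibroblast barcodes.

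The promoters of 4 of the genes that marked these cells are shown because each holds a match to the binding motif of AP-1, the FOS and JUN factors. They run from 250 bases before to 50 after the annotated start of the gene in RefSeq on build GRCm38.p6 (mm10), and are printed 5′ to 3′ on the gene's strand. Capitals mark each match to TGANTCA, searched on both strands. F3 lies on the plus strand, and its window is chr3:121723287-121723586. Sprr1a lies on the minus strand (chr3:92485832-92486131), as does Anxa10 (chr8:62123144-62123443). Il1rn lies on the plus strand, and the first of its 3 annotated windows is chr2:24336610-24336909.
F3: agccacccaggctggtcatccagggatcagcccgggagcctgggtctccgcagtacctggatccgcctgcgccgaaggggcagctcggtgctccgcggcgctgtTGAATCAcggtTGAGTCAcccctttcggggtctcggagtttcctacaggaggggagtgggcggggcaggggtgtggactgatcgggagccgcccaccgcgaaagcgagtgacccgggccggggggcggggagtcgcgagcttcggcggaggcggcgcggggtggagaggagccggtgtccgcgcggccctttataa
Sprr1a: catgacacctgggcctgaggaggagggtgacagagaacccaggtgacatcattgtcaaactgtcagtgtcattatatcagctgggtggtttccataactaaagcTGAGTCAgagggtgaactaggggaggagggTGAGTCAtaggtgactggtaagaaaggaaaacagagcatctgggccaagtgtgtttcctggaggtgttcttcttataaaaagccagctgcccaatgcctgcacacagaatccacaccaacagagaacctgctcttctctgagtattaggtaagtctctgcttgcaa
Anxa10: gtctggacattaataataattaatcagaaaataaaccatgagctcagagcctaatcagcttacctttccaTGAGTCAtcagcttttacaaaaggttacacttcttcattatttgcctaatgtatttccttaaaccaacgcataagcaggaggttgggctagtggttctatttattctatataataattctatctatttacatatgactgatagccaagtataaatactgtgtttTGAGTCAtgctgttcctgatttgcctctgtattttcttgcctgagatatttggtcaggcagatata
Il1rn: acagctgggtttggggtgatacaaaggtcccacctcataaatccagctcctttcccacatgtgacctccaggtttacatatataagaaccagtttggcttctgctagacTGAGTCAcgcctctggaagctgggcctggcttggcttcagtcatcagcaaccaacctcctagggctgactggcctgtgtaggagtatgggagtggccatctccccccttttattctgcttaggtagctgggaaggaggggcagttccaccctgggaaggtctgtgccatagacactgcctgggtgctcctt
The F3 matches start 146 and 135 bases before the gene's start, and the Sprr1a matches 146 and 116 bases before it. Those of Anxa10 start 180 and 16 bases before the start, and that of Il1rn 141 bases before it. Of the 19 genes made up of the gate, the markers and the leading genes higher in the members, 10 had a promoter in the table, with 13 windows. AP-1 matches were found in 6 of the 13 windows (46.2%) and in 2565 of all 32851 promoter windows of the table (7.81%). The 2 windows of Trim15 overlap and hold the same matches, so by gene AP-1 was matched in 5 of 10 and TEAD in 3 of 10. The TEAD motif, of the factors that YAP acts through, is GGAATG on either strand and was in 4 of the 13 (30.8%) and in 14.7% of all windows, and none of the 4 windows printed holds it. A match describes the letters only, and no binding was measured here.

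Beyond the gate, 578 of 9494 genes with at least 20 UMIs over members and other non-cycling cells in each library were at least 2-fold higher in the members of both libraries (6.09%), and 498 were at least 2-fold lower in both (5.25%). The rule used these same cells, so nothing is read from these counts. The 15 genes named were those with at least 100 CPM in the members of both libraries whose smaller ratio of the 2 libraries was largest. Among them were Prl2c2, Psca, Cwh43, F3, Sprr1a, Anxa8, Angptl4, Krt23, Anxa1, Trim15, Gprc5a, Anxa10, Ly6d and Mmp15. Prl2c2, proliferin, stood at 148 against 5.88 CPM in Ptger4-ON and at 684 against 2.36 CPM in Ptger4-OFF. It was concentrated, in 18 and 16 members with a UMI, and it shares near-identical sequence with other prolactin-family genes, so its value is uncertain. Psca, a Ly6-type surface antigen, stood at 142 against 5.88 CPM and at 413 against 8.95 CPM, and was found in 47 and 22 members. Cwh43, a gene of glycolipid anchor remodelling, stood at 255 against 11.8 CPM and at 339 against 8.24 CPM, in 73 and 36 members. Sprr1a, a small proline-rich protein of the cornified envelope that also appears after injury, stood at 397 against 31.7 CPM and at 424 against 14.8 CPM. Angptl4, an inhibitor of lipoprotein lipase, stood at 137 against 9.04 CPM and at 273 against 23.8 CPM, but the fibroblast barcodes held 198 and 237 CPM of it.

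**Figure D2:**
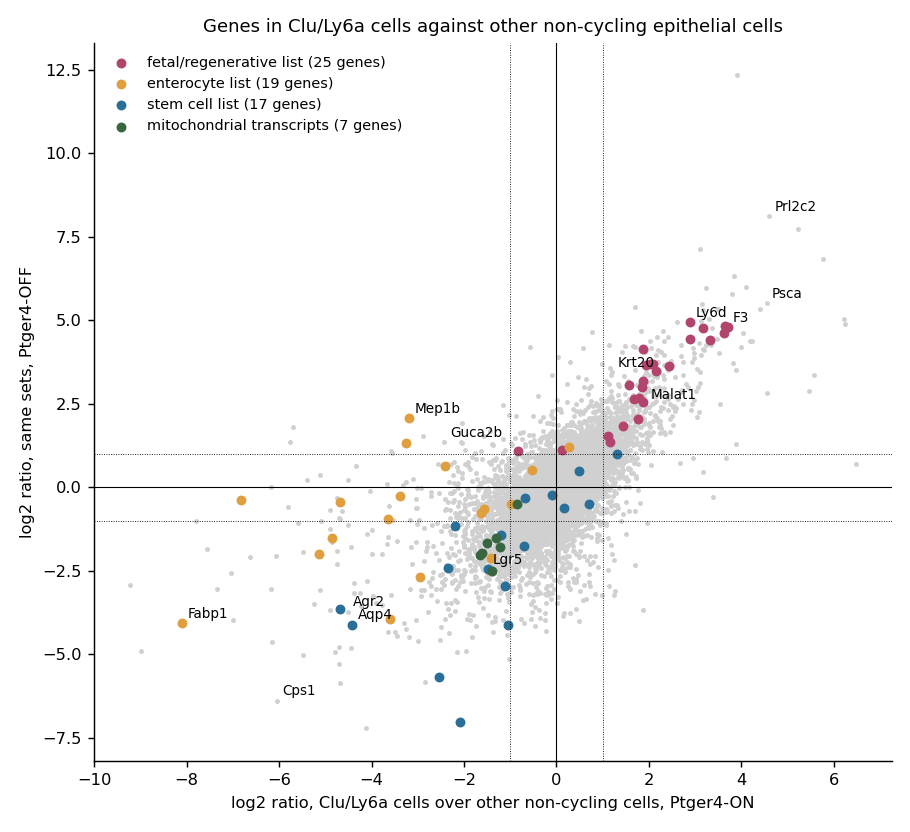
Log2 ratio of summed CPM, Clu/Ly6a cells over other non-cycling epithelial cells, in Ptger4-ON (x axis) and Ptger4-OFF (y axis) for 9494 genes outside the gate, with dotted lines at 2-fold and 4 gene lists in colour. Fetal/regenerative genes lie at the upper right, and stem cell genes mostly at the lower left, while some enterocyte genes such as Mep1b lie at the upper left.

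Of the fetal/regenerative list, 25 genes outside the gate had enough UMIs in both libraries, and 23 of them were at least 2-fold higher in both, none lower. The shares of all genes were 6.09% and 5.25%. The median log2 ratio was 2.03 in Ptger4-ON (29 genes) and 3.47 in Ptger4-OFF (25 genes), against 0.02 and -0.11 over all genes. Ly6e and Vnn1 were the 2 exceptions, with log2 ratios of 0.12 and 1.11 for Ly6e and -0.84 and 1.08 for Vnn1. Each member of the group had UMIs of these genes, but not always more than other cells. Their share of a cell's UMIs was 0.319% at the lowest, 2.96% at the median and 8.20% at the highest in Ptger4-ON members. In Ptger4-OFF members it was 0.510%, 3.67% and 7.87%. The other non-cycling cells had medians of 0.441% and 0.238%, the former above the lowest Ptger4-ON member. Fibroblast barcodes, which also express annexins and S100 proteins, had 0.937% and 1.14%. These were below the members' medians but above the lowest member of each library. Spp1, also on the list, was sparse, with 3 and 1 UMIs in the members. Spp1, Ly6e and Vnn1 were singled out after their values were seen.

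Membrane and calcium-binding proteins made up much of this group. Of 10 annexins, which bind membranes in the presence of calcium, 6 were at least 2-fold higher in both libraries and none lower. Among all genes 6.09% were that much higher and 5.25% that much lower. Anxa1, which also acts as an anti-inflammatory mediator, stood at 1862 against 208 CPM in Ptger4-ON and at 1355 against 50.2 CPM in Ptger4-OFF. Fibroblast barcodes held 287 and 382 CPM of it. Anxa8 stood at 164 against 13.1 CPM and at 130 against 5.18 CPM. Of 8 S100 genes, 5 were at least 2-fold higher in both. S100a6, calcyclin, stood at 8538 against 2096 CPM in Ptger4-ON and at 7972 against 612 CPM in Ptger4-OFF, with UMIs in 118 and 53 members.

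Adhesion and cytoskeletal genes were higher as well. Of 13 laminin and integrin genes, all 13 had ratios above 1 in both libraries and 7 were at least 2-fold higher in both. Lama3, a laminin chain that helps anchor epithelium to its basement membrane, stood at 92.1 against 8.14 CPM in Ptger4-ON and at 138 against 6.36 CPM in Ptger4-OFF. Itgb6, an epithelial integrin that activates TGF-beta, stood at 283 against 52.9 CPM and at 304 against 45 CPM. Of 18 actin cytoskeleton genes, 9 were at least 2-fold higher in both and none lower, among them the filamin Flna at 146 against 23.5 CPM and at 86.8 against 14.1 CPM. The tight junction genes divided: 3 of 15 were at least 2-fold higher in both and 1 was lower. With 6.09% of all genes that much higher and 5.25% lower, the 1 lower is near the share of all genes. Cldn4, a sealing claudin, stood at 784 against 227 CPM and at 699 against 109 CPM. Cldn15, the pore-forming claudin of the small intestine, was low in the members, at 36.7 against 189 CPM and at 12.8 against 175 CPM.

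Several signalling lists contained genes higher in the members. Of 16 YAP/TEAD targets with enough UMIs, 7 were at least 2-fold higher in both libraries and none was lower in both. All genes tested had 6.09% that much higher and 5.25% that much lower. Ctgf, a classical target, stood at 94.8 against 8.14 CPM in Ptger4-ON and at 84.2 against 5.18 CPM in Ptger4-OFF, and in fibroblast barcodes at 324 and 145 CPM. Myof stood at 241 against 50.2 CPM and at 245 against 14.8 CPM. Among 14 genes of the EGF family and its feedback, 6 were at least 2-fold higher in both. The ligand Areg, amphiregulin, stood at 2886 against 654 CPM and at 3039 against 687 CPM. The ligand Ereg, epiregulin, stood at 76.0 against 18.1 CPM and at 94.4 against 13 CPM. Their receptor Egfr stood at 82.3 against 21.7 CPM and at 91.9 against 19.1 CPM.

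Among 11 NF-kB and inflammatory genes, 6 were at least 2-fold higher in both libraries. The chemokine Cxcl16 stood at 335 against 59.7 CPM in Ptger4-ON and at 311 against 22.6 CPM in Ptger4-OFF. Tnf stood at 43.8 against 16.3 CPM and at 43.4 against 2.59 CPM. Of 13 interferon response genes, 7 were at least 2-fold higher and 1 lower in both. Of 17 AP-1 and early genes, 5 were at least 2-fold higher and none lower in both. Klf6, which many stimuli induce, stood at 1102 against 406 CPM and at 1215 against 467 CPM. Among 14 genes of cell cycle arrest and p53, 4 were at least 2-fold higher and none lower in both, such as the kinase Plk2 at 205 against 51.1 CPM and at 158 against 30.1 CPM. Over all genes tested, 6.09% were that much higher and 5.25% that much lower in both.

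Some genes of stomach epithelium were found in the members. Of 5 gastric genes with enough UMIs, 2 were at least 2-fold higher and 1 lower in both libraries. The shares of all genes were 6.09% and 5.25%. The 16 gastric genes summed to 1440 CPM in Ptger4-ON members and 1786 in Ptger4-OFF members, against 215 and 186 CPM in the other cells, mostly through Anxa10. Apart from Anxa10, Cldn18, the stomach claudin, stood at 112 against 6.33 CPM and at 66.3 against 0.942 CPM, in 27 and 11 members. Ctse, cathepsin E, stood at 79.6 against 0.904 CPM and at 28.1 against 1.41 CPM, in 25 and 8 members, with 47.2% of its Ptger4-ON UMIs in 1 cell. Gkn3, a gastrokine, was the 1 lower, at 17.9 against 47.5 CPM and at 7.66 against 31.3 CPM, with 3 UMIs in the Ptger4-OFF members. Tff1, also on the gastric list, had its highest log2 ratio in Ptger4-ON, 6.48, but was not 2-fold higher in Ptger4-OFF, and its levels are given under the other observations. In the members 7 and 8 of the 16 gastric genes were at 0 UMIs. Foxa1, a transcription factor of endodermal epithelium, is not on the gastric list but on a list of intestinal transcription factors. It stood at 142 against 45.2 CPM and at 102 against 35.6 CPM. Of 20 genes of that list, Foxa1 was the 1 at least 2-fold higher in both libraries, and 2 were lower, Vdr (given at the end) among them.

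The 15 genes named as lowest in the members, among those with at least 100 CPM in the other cells of both libraries, were Cps1, Defa17, Fabp1, Agr2, Aldh1b1, Nlrp6, Ces2e, Ang4, Oat, Pycard, Itln1, Mgst1, Dak, Cdca7 and Ifitm2. Cps1, the first enzyme of the urea cycle and abundant in normal crypts, stood at 5.37 CPM in Ptger4-ON members and 382 in the other non-cycling cells, with 6 UMIs in 3 members. In Ptger4-OFF it stood at 5.10 and 534 CPM, with 2 UMIs in 2 members, so that the ratio of 105 has a wide interval (29.0 to 865). Agr2, a folding factor of the secretory pathway, stood at 65.3 against 1499 CPM and at 28.1 against 390 CPM. Oat, a mitochondrial enzyme of ornithine metabolism, stood at 60.8 against 469 CPM and at 89.3 against 771 CPM. Pycard, the adaptor of inflammasomes, stood at 66.2 against 510 CPM and at 84.2 against 817 CPM. Fabp1, the liver fatty acid binding protein of enterocytes, stood at 2.68 against 854 CPM in Ptger4-ON, with 3 UMIs in the members, a 318-fold difference (109 to 1545). In Ptger4-OFF it stood at 174 against 2947 CPM.

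Stem cell genes were lower in the members as a list. Of 17 genes, 10 were at least 2-fold lower in both libraries and none higher, against 5.25% and 6.09% of all genes. Lgr5, the stem cell receptor for R-spondin, stood at 34.9 against 99.0 CPM in Ptger4-ON and at 17.9 against 105 CPM in Ptger4-OFF, with UMIs in 13 and 6 members. Olfm4 had no UMI in any member and stood at 11.3 and 16 CPM in the other cells. Aqp4 stood at 3.58 against 85.5 CPM and at 7.66 against 155 CPM. Cdca7, a MYC target of proliferating crypt cells, stood at 36.7 against 216 CPM and at 2.55 against 196 CPM, the latter with 1 UMI in the members.

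Enterocyte and Paneth cell genes were more often lower than higher in the members, and goblet genes divided. Of 19 enterocyte genes, 7 were at least 2-fold lower in both libraries and none higher, against 5.25% and 6.09% of all genes. Of 8 Paneth cell genes, 4 were at least 2-fold lower in both and none higher. Defa17, an alpha-defensin, had 2 and 3 UMIs in the members, at 1.79 against 1132 CPM and at 7.66 against 270 CPM. Alpha-defensins share near-identical sequence, and reads may move between them. Ang4, an antimicrobial angiogenin, had no UMI in the Ptger4-ON members and was at least 99.3-fold lower than in the other cells, with 3 counts set over the members for the 0. Per cell, the Paneth list held a median of 0.0263% of UMIs in Ptger4-ON members against 0.0885% in the others, but 0.0574% against 0.0364% in Ptger4-OFF. Of 10 goblet genes, 1 was at least 2-fold higher and 2 lower in both. The goblet list held a higher median share in the members of both libraries, 0.0371% against 0.0225% and 0.0234% against 0.00807%. Its sums were 8278 against 9138 CPM in Ptger4-ON and 5068 against 2919 CPM in Ptger4-OFF. Tff3, the goblet trefoil peptide, stood at 7129 against 2739 CPM in Ptger4-ON and at 4095 against 1363 CPM in Ptger4-OFF. Its UMIs came from 66 and 20 members, and 1 cell of each library held 16.7% and 22.9% of them.

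G1/S and mitochondrial genes were lower in the members. All 23 G1/S genes had ratios below 1 in both libraries, with medians of -0.80 and -1.75 (log2), and 8 were at least 2-fold lower in both. The gate itself removed cells with many mitotic transcripts from members and others alike. All 27 oxidative phosphorylation genes were below 1 in both, with medians of -0.65 and -0.89, but 1 was at least 2-fold lower in both. Of 7 mitochondrially encoded transcripts, 6 were at least 2-fold lower in both. Of 37 ribosomal protein genes, 34 were below 1 and 2 above 1 in both, with medians of -0.48 and -0.91. Of these 37, 1 was at least 2-fold lower in both, a smaller share than the 5.25% of all genes, and 1 was at least 2-fold higher in Ptger4-OFF.

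Some of these levels differed between bins of the gate score on both sides of the threshold. F3 stood at 83.5 CPM in Ptger4-ON cells with no gate UMI, at 90.3 below 0.1%, at 327 between 0.1% and 0.3%, at 1745 between 0.3% and 1% and at 2288 from 1% upward. In Ptger4-OFF the F3 levels in the same bins were 37.3, 100 (exact Poisson 95% interval 82.1 to 121), 724, 1770 and 3911 CPM. S100a6 likewise ran from 566 to 10084 CPM in Ptger4-ON and from 214 to 10055 in Ptger4-OFF. Malat1 ran from 1846 to 11722 CPM and from 2055 to 15253 CPM. Cps1 ran the other way, from 538 to 2.36 CPM in Ptger4-ON and from 605 to 0 in Ptger4-OFF. Agr2 changed abruptly at the threshold in Ptger4-ON, with 1368 CPM between 0.1% and 0.3% and 72.0 between 0.3% and 1%. In Ptger4-OFF Agr2 was already at 83.5 CPM between 0.1% and 0.3%. The bins are cut from a score that counts 4 genes of the same cells, so deep cells place more finely than shallow ones.

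**Figure D3:**
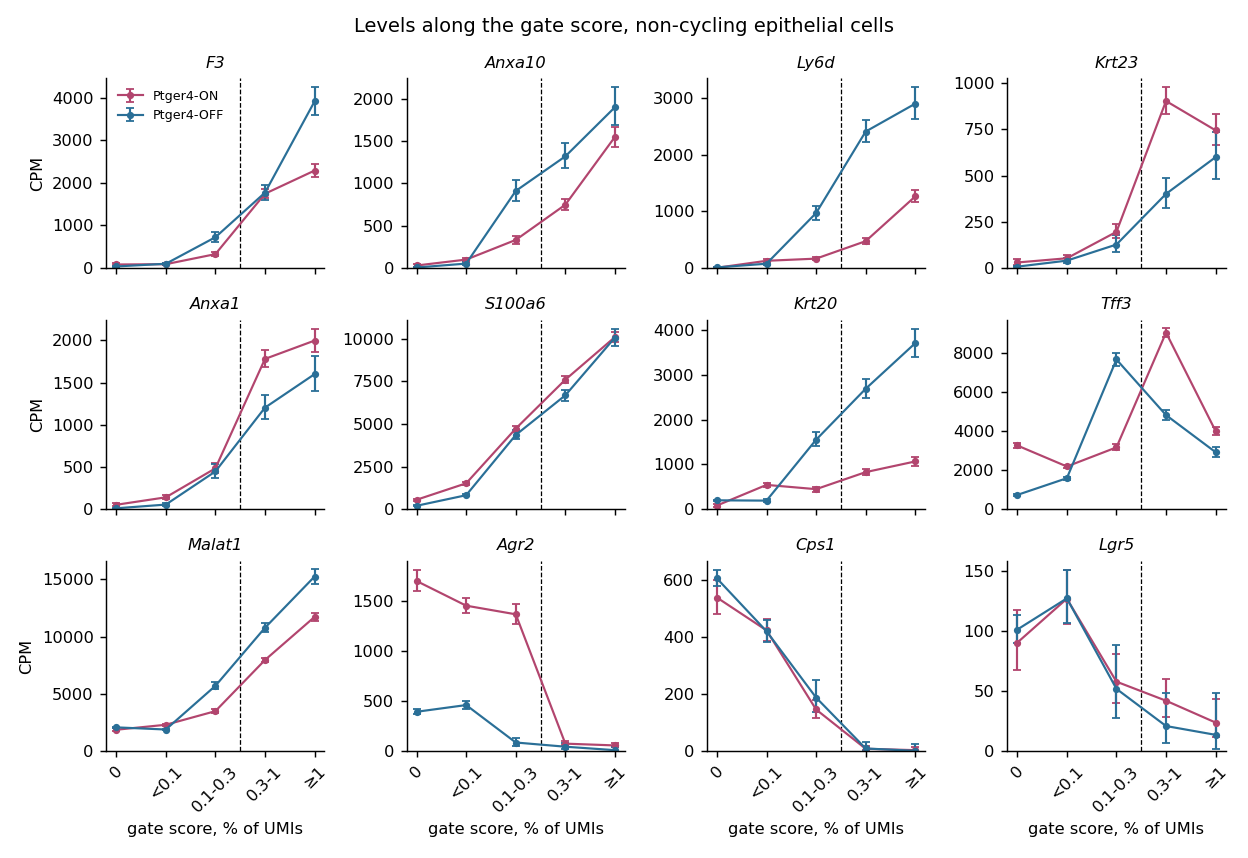
CPM of 12 genes (y axis) in bins of the gate score (x axis, % of UMIs in Clu, Ly6a, Msln and Il1rn) over non-cycling epithelial cells of Ptger4-ON and Ptger4-OFF, with exact Poisson 95% intervals of counting error and the threshold as a dashed line. F3, Anxa1 and S100a6 are higher from bin to bin toward 1%, Cps1 is lower, and Tff3 follows no single direction.

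Members differed among themselves by the gate gene they carried most of. Members led by Ly6a had more G1/S transcripts than those led by Clu: the list held a median of 0.211% of a cell's UMIs in 23 Ly6a-led Ptger4-ON members and 0.0351% in 80 Clu-led ones. In Ptger4-OFF the medians were 0.0505% in 7 cells and 0.0251% in 39. Nuclear-retained RNAs went the other way, with medians of 0.387% and 1.19% in Ptger4-ON and 0.583% and 1.13% in Ptger4-OFF. The fetal/regenerative list held 2.28% in Ly6a-led and 3.02% in Clu-led Ptger4-ON members, and 3.56% and 3.44% in Ptger4-OFF, so that its order turned between libraries. Sprr1a stood at 591 CPM in Clu-led and 89.8 CPM in Ly6a-led Ptger4-ON members, but at 412 and 426 CPM in Ptger4-OFF. Lgr5 stood at 24.6 CPM in Clu-led and 25.7 CPM in Ly6a-led Ptger4-ON members, from 16 and 8 UMIs. These classes come from the same counts, and the Il1rn-led class had only 5 and 2 cells.

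Between conditions, 7934 genes had at least 20 UMIs over the members of both libraries. In Ptger4-OFF members 339 of them were at least 2-fold higher than in Ptger4-ON members (4.27%), and 630 were at least 2-fold lower (7.94%). The median log2 ratio over all genes was -0.10 with CPM and -0.00 with median-of-ratios factors, and those factors moved the counts to 426 higher and 504 lower, or from 35% to 45.8% of called genes higher in Ptger4-OFF. With equal weight for each cell the counts were 608 higher and 979 lower, and with a minimum of 50 UMIs 150 and 234. A minimum of 10 UMIs gave 992 lower. With the gate at 0.5%, 50.2% of the genes lower in Ptger4-OFF members and 63.1% of those higher were called again. Without barcodes over 50000 UMIs, which among the members were all in Ptger4-ON, the shares called again were 73.7% and 78.8%. The number of cells also differs, 120 against 55, and fewer Ptger4-OFF UMIs leave its low genes more open to counting error. With 1 library each, library and condition cannot be told apart.

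Genes of the fetal/regenerative list differed in both directions between the members of the conditions. Of 28 genes, 3 were at least 2-fold higher and 3 lower in Ptger4-OFF, against 4.27% and 7.94% of all genes. Their median log2 ratio was 0.00. In the other non-cycling cells the same list had 0 genes higher and 12 of 27 lower, with a median of -0.98. Since the gate holds the members of both libraries to 1 threshold, closeness of this list's median among the members is partly set by the rule. The other cells are likewise held below the same threshold. Gate genes are therefore given as levels only: Ly6a stood at 1546 CPM in Ptger4-ON and 1850 CPM in Ptger4-OFF members, and at 382 and 66.4 CPM in the other cells.

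Single markers differed between the conditions beyond counting error, which leaves out the spread between cells and between libraries. Ly6d was 3.36-fold higher in Ptger4-OFF members (3.06 to 3.68), at 2595 against 773 CPM, and 1.24-fold lower in the other cells (1.05 to 1.47). Krt20, a keratin of mature surface cells, was 3.34-fold higher in Ptger4-OFF members (3.07 to 3.63), at 3072 against 920 CPM, with UMIs in 46 of 55 and 91 of 120 cells. In the other cells Krt20 was 1.41-fold lower in Ptger4-OFF (1.29 to 1.54). Psca was 2.91-fold higher in Ptger4-OFF members (2.32 to 3.64), though about the same share of members had a UMI of it in both libraries. Lgals3, galectin-3, stood at 3146 against 1533 CPM, with 37% of its Ptger4-OFF UMIs in 1 cell. Krt23 was 1.77-fold lower in Ptger4-OFF members (1.51 to 2.08). F3, at 1.33-fold (1.23 to 1.43), and Anxa10, at 1.47-fold (1.33 to 1.62), were slightly higher there.

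Enterocyte genes had the median farthest from 0 between the conditions in the members, among the lists with at least 3 genes measured. Of 15 enterocyte genes, 13 were at least 2-fold higher in Ptger4-OFF members and none lower, with a median log2 ratio of 3.26. The shares of all genes were 4.27% and 7.94%. In the other cells 8 of 22 were higher and 1 lower, with a median of 0.55. Much of this rests on 1 Ptger4-OFF member of 24323 UMIs, which held 1461 of the 2389 enterocyte UMIs (61.2%). Its gate genes held 0.514% of its UMIs, and it carried 166 fetal/regenerative UMIs. In Ptger4-ON, the member with the most held 113 of 835 (13.5%). Without these 2 cells 6 of 10 genes were at least 2-fold higher and 1 lower, with a median of 1.87. The 2 cells were picked by UMI number. A Clu-led Ptger4-OFF member with a larger enterocyte share, 6.77% against 6.01% of its UMIs, stayed in. Over cells, the list held a median of 0.0504% of the UMIs of a Ptger4-ON member and 0.0795% of a Ptger4-OFF member, and 0.0947% and 0.151% in the other cells, so most members of either library had few enterocyte transcripts.

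The 12 genes with the largest ratios of Ptger4-OFF over Ptger4-ON members included Cyp2c55, Sis, Fabp1, Sult1b1, Apoa1, Ces2a, Sepp1, Mttp, Guca2b and Creb3l3. Guca2b, uroguanylin, stood at 66.2 CPM in Ptger4-ON members and 873 CPM in Ptger4-OFF members, in 18 and 20 cells, and at 54.6 and 754 CPM without the cell of each library richest in enterocyte UMIs. Apoa1, the main protein of high-density lipoprotein, stood at 113 and 3330 CPM, with 69.3% of its Ptger4-OFF UMIs in 1 cell, and at 36.7 and 1088 CPM without both cells. Sis, sucrase-isomaltase, stood at 4.47 and 301 CPM, but was found in 3 and 3 cells and fell to 54.4 CPM in Ptger4-OFF without that cell. Cyp2c55, a cytochrome P450 of the gut, had 0 UMIs in Ptger4-ON members and 46 in 7 Ptger4-OFF members, at least 43.8-fold higher with 3 counts set over the members for the 0.

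The 12 genes named as lower in Ptger4-OFF members have mixed roles. They were Il33, Rps23, Gdf15, Rpl38, Ddx21, Tomm20, Rbm28, Clca3, Ftsj3, Brix1, Mycbp2 and Prmt5. Ddx21, an RNA helicase of the nucleolus, stood at 409 CPM in Ptger4-ON members and 133 in Ptger4-OFF members, 3.08-fold lower (2.31 to 4.19). In the other cells it was 1.16-fold lower (1.07 to 1.26). Rbm28, Ftsj3 and Brix1, which take part in ribosome assembly, stood at 149, 147 and 132 CPM in Ptger4-ON members and at 53.6, 58.7 and 53.6 CPM in Ptger4-OFF members. Il33, an alarmin cytokine, stood at 174 CPM (195 UMIs in 37 cells) and 12.8 CPM (5 UMIs in 4 cells), 13.7-fold lower (5.76 to 42.6). Of the Il33 UMIs in Ptger4-ON members, 39.5% came from 1 cell, and fibroblast barcodes held 174 and 450 CPM. Gdf15, a stress cytokine, stood at 246 and 71.4 CPM.

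All 35 ribosomal protein genes with enough UMIs had ratios below 1, with a median log2 ratio of -0.67 and 8 at least 2-fold lower. Among all genes 7.94% were that much lower. In the other cells the median was -0.30. With the gate applied after thinning, Rpl5 turned to 0.019 from -1.05. All 20 G1/S genes were below 1 as well, with a median of -0.96 and 8 at least 2-fold lower, against a median of -0.07 in the other cells. The highest of them, at -0.07, lies within the shift of -0.10 that all genes share. Without the 3 deep barcodes of Ptger4-ON, 2 of 19 G1/S genes were at least 2-fold lower, with a median of -0.62. The 9 heat shock genes that dissociation can induce had a median of -0.72, with 7 below 1 and none past 2-fold, against -0.27 in the other cells, and their part in these differences was not tested. Stem cell genes had a median of -0.62, with 3 of 12 at least 2-fold lower and none higher, against 0.13 in the other cells. The 14 arrest and p53 genes had a median of -0.61, but of -0.17 when each cell had equal weight.

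Interferon and adhesion lists differed less. Of 14 interferon response genes, 4 were at least 2-fold higher in Ptger4-OFF members and none lower, against 4.27% and 7.94% of all genes. The list had a median of 0.32 against -0.51 in the other cells. With equal weight per cell 1 was higher and 2 were lower. Oasl1, an interferon-induced gene, stood at 83.2 and 237 CPM. None of 13 laminin and integrin genes and none of 9 annexins was 2-fold different, with medians of 0.25 and 0.46, while in the other cells the medians were -0.37 and -0.66. YAP/TEAD targets had a median of -0.14, with 1 of 18 higher and 1 lower, near the shares of all genes. The 1 lower was Ankrd1, a cardiac ankyrin repeat protein induced by stretch, with 52 UMIs in 9 Ptger4-ON members and 0 in Ptger4-OFF members, at least 6.07-fold lower with 3 counts set for the 0. Nt5e, the ecto-enzyme CD73 that makes adenosine, was the 1 higher, at 6.26 and 43.4 CPM (7 and 17 UMIs).

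**Figure D4:**
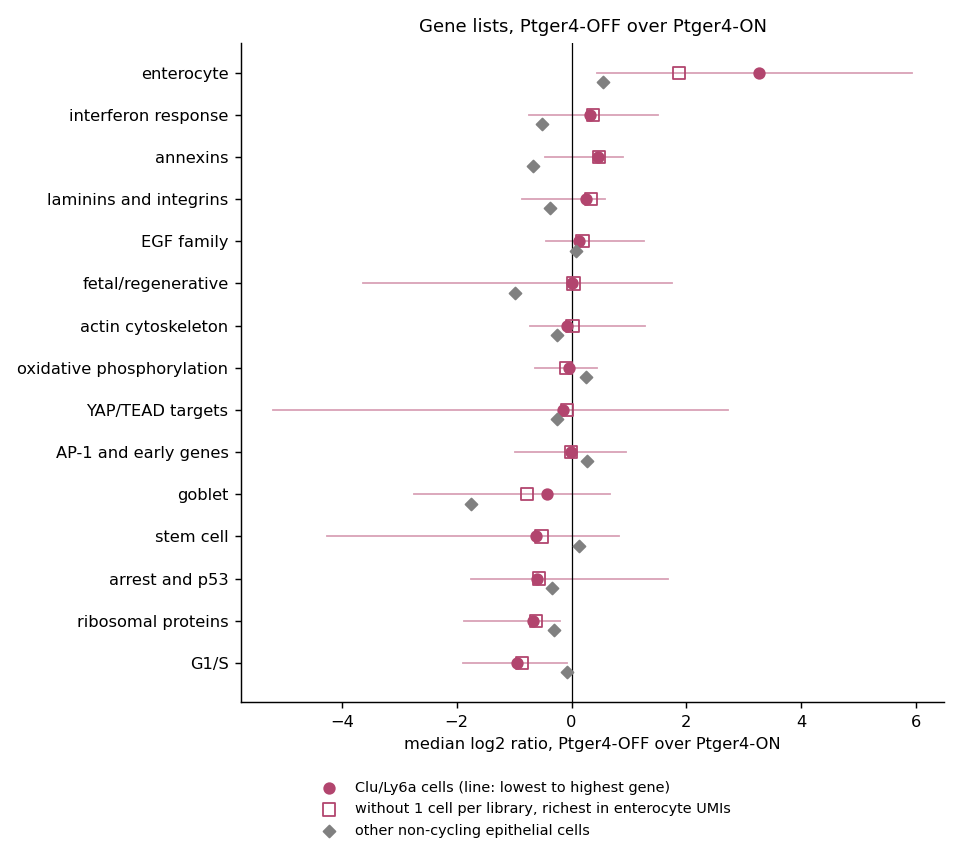
Median log2 ratio of Ptger4-OFF over Ptger4-ON (x axis) for 15 gene lists (y axis) in Clu/Ly6a cells (circles, with a line from the lowest to the highest gene), in the same cells without the 1 cell per library richest in enterocyte UMIs (squares) and in other non-cycling epithelial cells (diamonds). The enterocyte median moves from 3.26 to 1.87 without those cells, and the fetal/regenerative median is 0.00 in Clu/Ly6a cells and -0.98 in the other cells.

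Prostaglandin genes were sparse in the members. Ptger4 itself, the EP4 receptor and target of the antagonist, stood at 30.4 CPM (34 UMIs in 21 cells) in Ptger4-ON members and 40.8 CPM (16 UMIs in 11 cells) in Ptger4-OFF members, a ratio of 1.34 (0.692 to 2.50). In the other non-cycling cells it stood at 29.8 and 31.3 CPM. After thinning, 4.55% and 9.26% of the members had a Ptger4 UMI, against 0.752% and 0.284% of fibroblast barcodes. The antagonist acts on the receptor protein, so the transcript does not check the treatment. Ptgs2, the inducible enzyme of prostaglandin synthesis, stood at 61.7 CPM (69 UMIs in 9 cells) in Ptger4-ON members and 15.3 CPM (6 UMIs in 4 cells) in Ptger4-OFF members, 4.03-fold lower (1.76 to 11.4). Fibroblast barcodes held 763 and 627 CPM of Ptgs2. Slco2a1, the prostaglandin importer, stood at 27.7 and 12.8 CPM, and Abcc4, an exporter, at 38.4 and 17.9 CPM.

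Hpgd, which inactivates prostaglandin E2, moved the other way. It stood at 13.4 CPM (15 UMIs in 9 cells) in Ptger4-ON members and 76.6 CPM (30 UMIs in 9 cells) in Ptger4-OFF members, a ratio of 5.71 (2.98 to 11.4). In the other non-cycling cells it stood at 47.0 and 38.4 CPM. Without the cell richest in enterocyte UMIs it stood at 59.9 CPM in Ptger4-OFF members, a ratio of 4.46 (2.21 to 9.24). Hpgd was thus below the other cells in Ptger4-ON members and above them in Ptger4-OFF members, from counts too low to describe single cells. Of the 9 prostaglandin genes with enough UMIs, Hpgd was the 1 at least 2-fold higher in Ptger4-OFF members, and Ptgs2, Slco2a1 and Abcc4 were the 3 at least 2-fold lower, against 4.27% and 7.94% of all genes. Without the cell of each library richest in enterocyte UMIs, Slco2a1 (log2 ratio -0.91) and Abcc4 (-0.93) were no longer past 2-fold. Their UMIs stayed the same, 31 and 5 for Slco2a1 and 43 and 7 for Abcc4, and only the totals they are scaled by changed. The intervals of these ratios, 0.149 to 1.27 and 0.188 to 1.11, include 1, so counting error alone covers both differences.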

How the data were processed

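Per the labels, 1 Drop-seq library per condition was deposited as a matrix of genes by cell barcodes, and the deposited values are whole-number counts, taken as UMIs as the protocol implies. Reads were aligned with STAR 2.6 to mm10, per the submitters' processing notes, while for the counting tool and the annotation the step is not given in the sources used here. The matrices held 18309 genes and 7408303 (Ptger4-ON) and 9490205 (Ptger4-OFF) UMIs.

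The filters asked for 300 genes or more per barcode and a mitochondrial share of 20% or less, and doublets were left in. UMIs were summed over the cells of each set and scaled to CPM. Ratios had a pseudocount of 0.5 on the log2 scale and needed at least 20 UMIs, and a gene past 2-fold was counted. With 1 library per condition no p-value was computed. Intervals (95%) are exact and cover counting error only. A sum weights cells by their UMIs, so deep cells count more.

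The cells, gene lists and rules were chosen with earlier results of these data known. Named genes were the 15 highest and 15 lowest ratios against other non-cycling cells, the 12 highest and 12 lowest between conditions (at least 100 CPM, and at least 0.5 times the fibroblast level), the gate, marker and prostaglandin genes, and up to 4 genes of each list. A few genes these rules pick are not reported here. Python 3.11.15 was used with scanpy 1.11.5 (Scrublet), scipy 1.17.1, pandas 2.3.3 and numpy 2.4.6, and edgeR 4.0.16 in R 4.3.3 for TMM factors. The calculations were tested on simulated data.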

Additional observations from a re-analysis of the deposited data

Results flagged for a closer look

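In 4 named genes the Clu/Ly6a cells stood below the other non-cycling epithelial cells in Ptger4-ON and above them in Ptger4-OFF, past 2-fold in both. With 1 library per condition this difference was not tested. Guca2b had log2 ratios of -2.42 and 1.35, and the latter was 1.14 without the Ptger4-OFF member richest in enterocyte UMIs. Apoa1 had ratios of -3.24 and 1.32, and the latter became -0.29 without that member. Mep1b, a brush border metalloprotease, had ratios of -3.20 and 2.06, from 4 and 29 UMIs in the members, and 1.48 in Ptger4-OFF without that member. Hpgd had ratios of -1.77 and 1.01, from 15 and 30 UMIs, and 0.67 in Ptger4-OFF without that member. Of 9494 genes, 39 were past 2-fold in opposite directions in the 2 libraries, either way round.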

How the results depend on the processing

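No paired analysis was possible because each condition had 1 library, and for the same reason no replicate could be left out. Of 108 alternative values, 101 stayed close (a count within 1.5 times the reported one, a share within its 95% interval) and 7 moved, and the cause was not tested. Close counts are not the same genes: genes lower in the members of both libraries went from 498 to 746 with equal weight, with 75.5% of the 498 called again. The Ptger4-ON share of 20.5% was 14.7% with the gate at 0.5%, and 16.6% with a gate without Ly6a, an alternative chosen after seeing the data. Genes at least 2-fold higher in Ptger4-ON members (630) numbered 979 with equal weight for each cell, 992 with a minimum of 10 UMIs and 234 with 50 UMIs. Those higher in Ptger4-OFF members (339) numbered 608 with equal weight and 150 with 50 UMIs, where fewer genes were tested. Of the ratios of single genes 6731 stayed close, 371 moved and 2 turned direction. Apoa1 in Ptger4-OFF members over others turned from 1.32 to -0.29 (log2) without the member with the most enterocyte UMIs, also chosen after seeing the data. Rpl5 in Ptger4-OFF over Ptger4-ON members turned from -1.05 to 0.019 with the gate applied after thinning. Of list medians 2287 stayed close and 7 moved. Shares of cells with a UMI depend on depth, and 24 of 32 moved with the depth of thinning. Genes with few UMIs in the 55 Ptger4-OFF members have wide intervals, and a gene at 0 UMIs there is not shown to be absent.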

Other observations

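Several gene groups in the Clu/Ly6a cells belong to no comparison above. Plasminogen genes joined F3: Plat, tissue plasminogen activator, stood at 77.8 CPM in Ptger4-ON members and 115 in Ptger4-OFF members, against 9.95 and 8.48 CPM in the other non-cycling epithelial cells. Serpinb5, maspin, stood at 209 and 265 CPM against 39.3 and 11.8 CPM. Of the 8 plasminogen and coagulation genes measured in both libraries, 4 were at least 2-fold higher in both and 1 lower. The shares of all genes were 6.09% and 5.25%. Galectins did not move as 1 family: Lgals3 stood at 1533 against 417 CPM in Ptger4-ON, while Lgals2, a galectin of enterocytes, stood at 748 against 2230 CPM. Cnfn, cornifelin of the cornified envelope, had 35 UMIs in 7 Ptger4-ON members and none in the Ptger4-OFF members. Tff1, the gastric trefoil peptide of the gastric list above, was singled out after its values were seen. It had 158 UMIs in 13 Ptger4-ON members, at 141 against 1.36 CPM, and 45 UMIs in 6 Ptger4-OFF members, at 115 against 71.8 CPM.

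The 17 cholesterol synthesis genes had 3 at least 2-fold lower and none higher in both libraries, against 5.25% and 6.09% of all genes. The 9 heat shock genes that dissociation can induce had none at least 2-fold different in both. Vdr, the vitamin D receptor, stood at 4.47 against 47.9 CPM in Ptger4-ON and at 2.55 against 63.8 CPM in Ptger4-OFF, from 5 and 1 UMIs in the members.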
